A study of Mus musculus with 20 samples.

Results

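Expression was examined for 5 of the 24411 genes in the table: Angptl7, Myoc, Mgp, Chil1 and Cpne7, which were grouped as genes of the tissues that drain aqueous humor. Matching by symbol found 4 of them, and the remaining one, Chi3l1, was found under its mouse symbol Chil1 through the RefSeq synonym; all 5 passed the filter on low values, as did 18807 genes in all. The names were chosen with results of these data known. Angptl7 and Cpne7 had come up for their higher values in WT mice on the vitamin A-deficient diet, so for all 5 genes the difference between the WT groups is given as a description, without a test. The 3 comparisons that involve samples labelled Stra6-/- were tested. VAS Stra6-/- against VAS WT and VAD Stra6-/- against VAD WT each reuse a WT group from the choice of genes. For Angptl7 and Cpne7 that choice favors higher values against VAS WT and lower values against VAD WT. Their p-values in these comparisons are therefore no independent support. VAD Stra6-/- against VAS Stra6-/- compares neither WT group, but the spread in its test came from all 4 groups. Which results brought up Myoc, Mgp and Chil1 is not given, so no comparison is shown to be independent of their choice.

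The samples were RPE-choroid, the outer eyecup that remains after the cornea, iris, lens, vitreous and neural retina are taken off, from C57BL/6 mice (C57BL/6J for Stra6-/- in the methods). They formed 4 groups of 5: WT mice on a vitamin A-sufficient diet (VAS, 4 IU vitamin A per g), WT mice on a deficient diet (VAD, 0 IU per g), and Stra6-/- mice on the same diets, each for 12 weeks after weaning. The eyecups of a mouse were pooled into a sample. The WT mice were bought while the knockouts were bred in house, so genotype and origin cannot be told apart. Stra6 encodes the membrane receptor that takes up retinol from its carrier in blood.

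Aqueous humor leaves the eye through the trabecular meshwork, a sieve of matrix-covered beams, and then through the endothelium of the Schlemm canal. Cells of the meshwork, and fibroblasts of the sclera and corneal stroma next to it, secrete large amounts of glycoprotein into their matrix. Angptl7 (an angiopoietin-like protein), Myoc (myocilin, the product of a glaucoma gene with an olfactomedin domain) and Chil1 (a chitinase-like lectin without chitinase activity) are such secreted glycoproteins. Mgp is a vitamin K-dependent matrix protein that keeps soft tissue from calcifying. Cpne7 belongs to the copines, cytosolic proteins that bind membranes when calcium rises.

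The sequences just upstream of the start sites are shown because Angptl7, Myoc and Chil1 moved together between the groups labelled Stra6-/-. RefSeq promoter windows (GRCm38.p6) matched 3 of the 5 genes; Mgp and Cpne7 are named only. Each run is the 250 bases before the start, read 5′ to 3′ on the gene's own strand: chr4:148500463-148500712 on the minus strand for Angptl7, chr1:162638900-162639149 on the plus strand for Myoc and chr1:134181906-134182155 on the plus strand for Chil1. Capitals mark a match to TATAAA, the core of the TATA box.
Angptl7: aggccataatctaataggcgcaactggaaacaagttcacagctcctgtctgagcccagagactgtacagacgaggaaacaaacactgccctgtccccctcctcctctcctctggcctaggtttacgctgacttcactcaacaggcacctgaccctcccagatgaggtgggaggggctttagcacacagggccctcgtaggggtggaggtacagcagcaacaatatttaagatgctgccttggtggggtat
Myoc: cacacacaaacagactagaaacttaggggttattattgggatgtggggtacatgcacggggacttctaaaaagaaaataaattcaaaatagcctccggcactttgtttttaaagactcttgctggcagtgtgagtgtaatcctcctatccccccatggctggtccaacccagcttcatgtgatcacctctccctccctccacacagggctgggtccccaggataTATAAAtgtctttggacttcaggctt
Chil1: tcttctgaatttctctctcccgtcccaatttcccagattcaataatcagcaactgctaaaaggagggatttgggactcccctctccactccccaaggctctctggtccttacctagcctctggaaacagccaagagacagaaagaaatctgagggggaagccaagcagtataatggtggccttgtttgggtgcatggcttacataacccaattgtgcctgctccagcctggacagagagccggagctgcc
Myoc alone of the 3 held TATAAA, starting 26 bases before the start site. On both strands, 12.3% of 32536 promoter windows of this length held it. Neither AGGTCA, the half-site of many nuclear receptors including those for retinoic acid, nor AGAACA, a glucocorticoid receptor half-site, was found in any of the 3 windows, while 14.0% and 16.0% of all windows held them. The search motifs do not overlap one another. These are letters in a window and say nothing about binding.

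In GENCODE vM21 coordinates on GRCm38, Angptl7 lies at chr4:148495183-148500460, Myoc at chr1:162639155-162649693, Mgp at chr6:136872435-136875823, Chil1 at chr1:134182176-134190181 and Cpne7 at chr8:123117374-123135182. Angptl7 overlaps Mtor on the opposite strand but shares 0 exonic bases with it, and group means of Mtor ran only from 1108 to 1593. Myoc shares 93 exonic bases with the antisense gene Myocos, and Cpne7 shares 67 with Mir7080 and overlaps the gene Gm20388 on its own strand. Whether counting used the strand is not given in the sources used here, so reads in those stretches could belong to either gene.

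Values are gene counts divided by a size factor per library, and 1 read was worth 0.845 to 1.42 on this scale. Libraries held 13331903 to 21878614 reads (median 17785927). Stra6 itself was at 2414 to 2742 in VAS WT, 669 to 1529 in VAD WT and 564 to 694 in VAS Stra6-/-. It was at 1973 to 2393 in the libraries with the VAD Stra6-/- label, which taken unscaled goes against their label. The paper describes abundant STRA6 in the RPE, and the summed RPE markers differed between groups too. Their means were 108280 in VAS WT, 38019 in VAD WT, 111586 in VAS Stra6-/- and 497869 in the VAD Stra6-/- label. Stra6 was not scaled to these sums, so its unscaled level does not settle the label. These libraries are therefore called by that label throughout, and every direction drawn from them carries this reservation. VAD WT replicates 1, 3 and 5, at 693, 697 and 669, were at or next to the top of the VAS Stra6-/- range. Unscaled Stra6 alone therefore does not tell these WT-labelled libraries from knockouts. Their RPE markers summed to only 27547 to 29603, however, against 108519 to 113878 in VAS Stra6-/-. Directions drawn from VAD WT carry a reservation too. Replicates 2 and 4 of VAD WT also stood apart from replicates 1, 3 and 5: Xist, the RNA that coats the inactive X chromosome, was at 10912 and 11767 there and at 174 to 234 in the other 3. Sex-linked transcripts moved with the groups as well, since Xist was at 7.69 to 38.4 in VAS WT, 15320 to 18052 in VAS Stra6-/- and 3570 to 4280 in the libraries with the VAD Stra6-/- label, where the Y-linked Ddx3y stood at 741 to 970 against 0 to 1.02 in VAS Stra6-/-. Their part in the differences between those groups cannot be told apart from genotype and diet. High Xist stood beside Ddx3y not only in all 5 libraries with the VAD Stra6-/- label but also in VAD WT replicates 2 and 4, where Ddx3y was at 75.2 and 80.5. Ddx3y was at 981 to 1193 in VAS WT and at 1041, 1064 and 1133 in VAD WT replicates 1, 3 and 5. In those VAD WT replicates Xist, though far lower than in replicates 2 and 4, was above every VAS WT library. Cells of a single male or female mouse would carry high levels of only one of these RNAs, so n = 5 counts libraries here and may not count separate mice. Markers of the RPE were present in every library, with 8 genes summing to 27547 at the lowest. The 10 markers of corneal and surface epithelium summed to 716015 to 851508 in VAS WT, against 102226 to 117893 for the RPE markers, although the anterior segment is described as removed.

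Angptl7 was lowest in VAS WT, at 496, 472, 485, 617 and 458 in replicates 1 to 5. In VAS Stra6-/- it was at 943, 857, 801, 983 and 952. All 5 VAS Stra6-/- libraries lay above all 5 WT libraries, and replicate 4 of VAS WT came nearest to them. In VAD WT the values were 1273, 5254, 1578, 4700 and 1634, so replicates 2 and 4 were far above the others, yet the lowest of the 5 still exceeded every library of either VAS group. The libraries with the VAD Stra6-/- label held 5499, 5365, 5535, 5972 and 5666, the highest of the series and close to one another.

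Myoc hardly differed between the VAS groups, with 3845, 3869, 4430, 4039 and 4390 in WT and 4103, 4324, 4310, 4100 and 4132 in Stra6-/-. VAD WT fell into separate sets on each side of these, at 1818, 20304, 1866, 19432 and 1991. Replicates 1, 3 and 5 thus lay below every VAS library and replicates 2 and 4 above every one. In the libraries with the VAD Stra6-/- label Myoc was at 33592, 31852, 33099, 31403 and 36086.

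Chil1 took almost the same course as Myoc. It stood at 3117, 3270, 3513, 3187 and 3820 in VAS WT and at 4714, 4702, 4742, 4800 and 4746 in VAS Stra6-/-. The VAS Stra6-/- libraries were nearly identical to one another and did not overlap WT. In VAD WT the values were 1478, 16732, 1775, 16412 and 1518, and the libraries with the VAD Stra6-/- label held 32635, 31994, 33912, 33952 and 36681.

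Mgp was abundant and varied least. It was at 6961, 6642, 7901, 8004 and 8297 in VAS WT and at 8419, 7751, 6742, 8468 and 7934 in VAS Stra6-/-, ranges that overlapped almost fully. VAD WT split again, at 5236, 12695, 5533, 10831 and 5704. The libraries with the VAD Stra6-/- label held 15956, 14144, 15480, 15654 and 14775, above every other library.

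Cpne7, the least abundant of the 5, ran the other way. Its values were 287, 175, 139, 226 and 183 in VAS WT and 222, 249, 235, 219 and 250 in VAS Stra6-/-, which overlapped. In VAD WT it was at 681, 384, 772, 431 and 828, above every VAS library, and here replicates 2 and 4 were the lower ones. In the libraries with the VAD Stra6-/- label it was at 96, 105, 57, 73 and 38, below every other library.

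**Figure D1:**
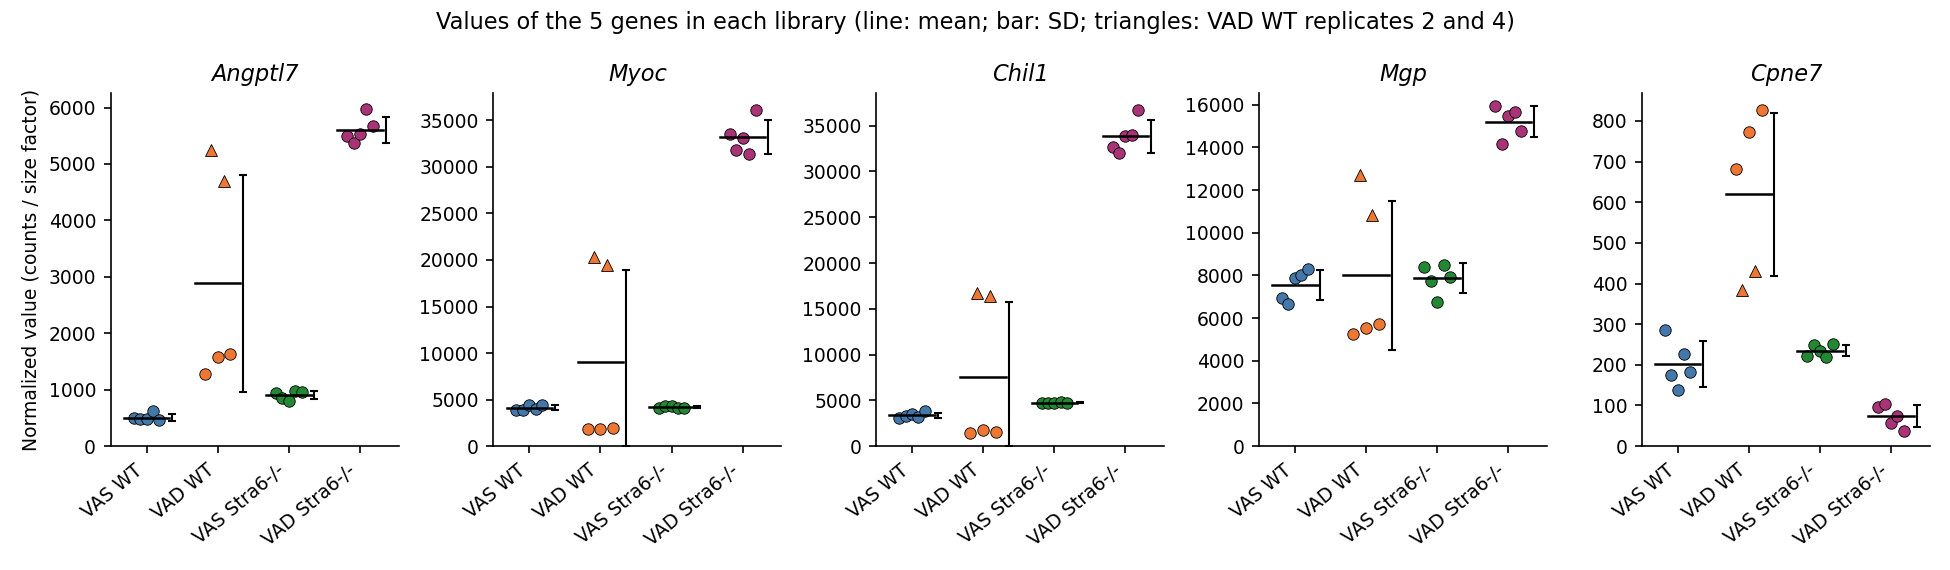
Normalized value (counts divided by the size factor, linear axis from 0) of Angptl7, Myoc, Chil1, Mgp and Cpne7 in each of the 20 libraries, by labelled group of 5; points are libraries, lines group means and bars 1 SD, cut at 0 where they reach below it. Triangles mark VAD WT replicates 2 and 4, which lie above replicates 1, 3 and 5 for 4 of the genes and below them for Cpne7.

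Levels of different genes were compared only per kb of exon. Mgp led in VAS WT with 6370 ± 604 (SD, n = 5), followed by Myoc with 1984 ± 135, Chil1 with 1206 ± 102, Angptl7 with 234 ± 29.5 and Cpne7 with 38.3 ± 10.7. The order was the same in VAS Stra6-/-. In the libraries with the VAD Stra6-/- label Myoc came first with 16010 ± 887 per kb, and the means of Mgp (12810 ± 618) and Chil1 (12070 ± 642) differed by little more than 1 SD. Angptl7 followed with 2600 ± 107 per kb and Cpne7 with 14.0 ± 5.18.

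Of the groups labelled Stra6-/-, the VAD-labelled one was higher than VAS in 4 of the genes and lower in Cpne7. Means of Angptl7 were 5607 ± 230 (SD, n = 5) against 907 ± 75.4, a ratio of 6.18. Myoc had the largest ratio, 7.92, with 33206 ± 1840 against 4194 ± 113, and Chil1 was 7.14-fold higher, with 33835 ± 1800 against 4741 ± 37.6. Mgp was 1.93-fold higher (15202 ± 734 against 7863 ± 698), whereas Cpne7 was 3.19-fold lower (73.7 ± 27.3 against 235 ± 14.6). The groups overlapped for none of the 5, as for 24.5% of all genes on the higher side and 26.8% on the lower.

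All 5 differences passed limma's test with Benjamini-Hochberg adjustment at 0.05, where 53.2% of all genes tested did (24.4% higher and 28.8% lower). On the log2(value + 1) scale the change of Angptl7 was 2.63 (SE 0.28, 95% interval 2.05 to 3.21, limma adjusted p = 5.76e-08). Myoc changed by 2.98 (SE 0.52, 1.90 to 4.07, limma adjusted p = 4.95e-05) and Chil1 by 2.83 (SE 0.52, 1.75 to 3.92, limma adjusted p = 8.79e-05). The value for Mgp was 0.95 (SE 0.19, 0.57 to 1.34, limma adjusted p = 0.000162) and that for Cpne7 -1.75 (SE 0.26, -2.28 to -1.21, limma adjusted p = 6.09e-06). The median over all genes was -0.07. The SEs of Myoc and Chil1 carry the split of VAD WT, because the 4 groups share an estimate of the spread; with the groups labelled Stra6-/- alone they were 0.04 and 0.03.

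Many tissue markers moved in the same comparison. Of 12 sclera, tendon and cartilage markers 9 were higher and 1 lower, and their sum went from 10449 to 11261 in VAS Stra6-/- to 52221 to 54738. All 9 corneal stroma markers were higher, from sums of 36099 to 37076 to sums of 190050 to 203221, and 7 of 8 RPE markers were higher, from 108519 to 113878 to 476836 to 517446. All 10 cornea and surface epithelium markers were lower, with sums of 958813 to 998643 against 36650 to 49046. No marker of these 4 lists was at 0 throughout either group. The part of these tissues in the differences was not tested, and the ratios to marker sums given further on cannot assign it. In bulk RNA, fewer cells of a type and less RNA per cell cannot be told apart.

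On the sufficient diet, VAS Stra6-/- against VAS WT showed 1 of the 5 genes past the threshold, Angptl7, where 26.6% of all genes passed (15.9% higher and 10.8% lower). Its mean was 907 ± 75.4 against 505 ± 63.7 (SD, n = 5), a ratio of 1.79, and the log2 change was 0.85 (SE 0.28, 0.27 to 1.43, limma adjusted p = 0.0281). The choice of Angptl7 by a difference from the same VAS WT libraries favored this direction. Leaving out any of 7 of the 10 libraries, that is VAS Stra6-/- replicates 1, 4 or 5 or VAS WT replicates 1, 2, 3 or 5, took the limma adjusted p to 0.0540 to 0.0636, while with the VAS groups alone it was 2.79e-05. Chil1 was 1.40-fold higher (4741 ± 37.6 against 3381 ± 287) with no overlap between groups, as was the case for 19.3% of all genes on the higher side and 13.2% on the lower. Its log2 change of 0.49 (SE 0.52, -0.59 to 1.58) did not pass in the model of all 4 groups (limma adjusted p = 0.541) and passed with the VAS groups alone (SE 0.05, limma adjusted p = 2.70e-05).

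Myoc, Mgp and Cpne7 did not pass in this comparison. The log2 change was 0.03 for Myoc (-1.06 to 1.11, limma adjusted p = 0.983), 0.06 for Mgp (-0.33 to 0.44, limma adjusted p = 0.863) and 0.26 for Cpne7 (-0.28 to 0.79, limma adjusted p = 0.510). These intervals use the spread of all 4 groups and leave room for a change of over 2-fold in Myoc, but not in Mgp or Cpne7. The wide interval of Myoc carries the split of VAD WT, which is not part of this comparison. Its SE was 0.521 with all 4 groups and 0.0448 with the VAS groups alone. Sums of sclera markers (9927 to 10891 in VAS WT, 10449 to 11261 in VAS Stra6-/-) overlapped between the groups, and those of corneal stroma markers were slightly lower in VAS Stra6-/-, at 36099 to 37076 against 38063 to 40276. Other tissues differed more: 7 of 8 skeletal muscle markers were higher in VAS Stra6-/- (sums of 22234 to 26266 against 8669 to 10925), 6 of 8 lens markers lower (1005 to 1187 against 5182 to 5940) and 5 of 7 Schwann cell and optic nerve glia markers lower (7906 to 8217 against 12523 to 14011). Their part in the values of the 5 genes was not tested.

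On the deficient diet, the libraries with the VAD Stra6-/- label lay above VAD WT for Angptl7, Myoc, Chil1 and Mgp and below it for Cpne7, with no overlap, which held for 18.3% of all genes on the higher side and 19% on the lower. All 5 passed, against 55.9% of all genes (26.2% higher and 29.6% lower). The log2 change was 1.22 for Angptl7 (SE 0.28, limma adjusted p = 0.000812), 2.78 for Myoc (SE 0.52, limma adjusted p = 0.000108) and 3.06 for Chil1 (SE 0.52, limma adjusted p = 3.51e-05). Because VAD WT was split, ratios of means were smaller than these log2 averages for Myoc (3.66) and Chil1 (4.46), and edgeR on recovered reads gave log2 changes of 1.84 and 2.14. Mgp changed by 1.03 (SE 0.19, limma adjusted p = 6.67e-05), and Cpne7 was 8.40-fold lower, at -3.07 (SE 0.26, limma adjusted p = 1.58e-09). The choice of Cpne7 for its high values in the same VAD WT libraries favored this direction.

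The size of these differences rested on which VAD WT libraries entered. Against VAD WT replicates 2 and 4 only, the log2 change of Angptl7 was 0.17. The other 4 genes changed against that pair by 0.74 for Myoc, 1.03 for Chil1, 0.37 for Mgp and -2.54 for Cpne7. The pair was set apart by these same data, so no p-value is given for it. Against replicates 1, 3 and 5 only, the changes were 1.91 for Angptl7, 4.13 for Myoc, 4.41 for Chil1, 1.47 for Mgp and -3.43 for Cpne7.

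**Figure D2:**
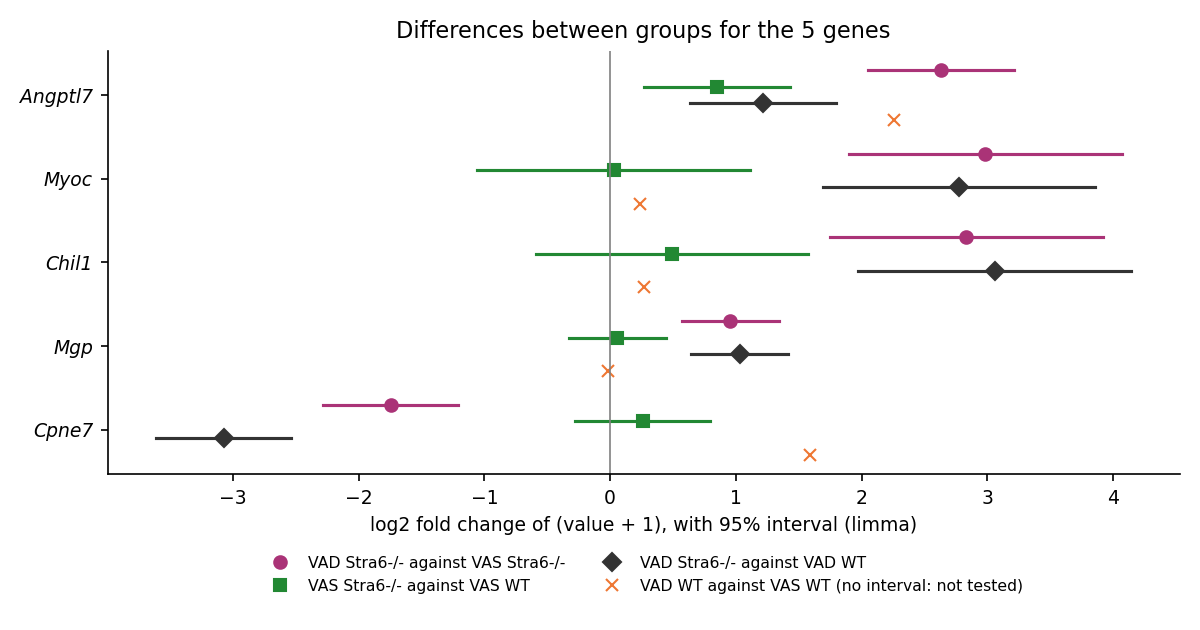
Log2 fold change of (value + 1) for the 5 genes in 3 tested comparisons, with 95% intervals from limma, and in VAD WT against VAS WT as crosses without interval because that difference was part of how genes were chosen. Both comparisons of the libraries with the VAD Stra6-/- label lie to the right of 0 for 4 genes and to the left for Cpne7.

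In WT mice, the contrast that had brought up Angptl7 and Cpne7, the means were 2888 ± 1922 in VAD against 505 ± 63.7 in VAS for Angptl7 (log2 difference 2.26) and 619 ± 201 against 202 ± 56.6 for Cpne7 (1.59). For these genes no VAD library overlapped the VAS libraries; that held for 2.13% of all genes on the higher side and 4.21% on the lower, and 8.78% of all genes passed the test (3.29% higher and 5.5% lower). Myoc, Mgp and Chil1 had log2 differences of 0.24, -0.02 and 0.27, averages over VAD WT libraries that lay on either side of VAS WT. Leaving out 1 library in turn moved these 3 across 0, between -0.28 and 0.59 for Myoc.

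The split within VAD WT was largest for the secreted pair. Replicates 2 and 4 averaged 10.5 times replicates 1, 3 and 5 for Myoc and 10.4 times for Chil1, against 3.33 times for Angptl7 and 2.14 times for Mgp. Cpne7 in replicates 2 and 4 was 0.536 of its level in the other 3. Relative to VAS WT, replicates 1, 3 and 5 held 2.96 times the Angptl7 and 3.77 times the Cpne7, but 0.460 of the Myoc, 0.470 of the Chil1 and 0.726 of the Mgp. Angptl7 was therefore the secreted gene whose higher level in VAD WT was present in both sets of libraries, at 2.96 and 9.85 times VAS WT. These are descriptions of libraries set apart by the data, and no test was made.

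Marker lists of many tissues were split as well. Sclera markers summed to 44282 and 44414 in VAD WT replicates 2 and 4 and to 8115 to 9336 in the other 3, and corneal stroma markers to 136736 and 140682 against 48465 to 50312. Corneal epithelium markers went the other way, with 441561 and 444838 against 1175100 to 1204480. Skeletal muscle markers (10277 and 11011 against 2643 to 2822), endothelium markers (14954 and 15502 against 4916 to 5033) and rod markers (271100 and 273299 against 104803 to 107937) were also higher in replicates 2 and 4. Lens markers (1084 and 1161 against 3800 to 3967) and Schwann cell and optic nerve glia markers (7943 and 8171 against 19135 to 21269) were lower. The part of these tissues in the split was not tested.

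**Figure D3:**
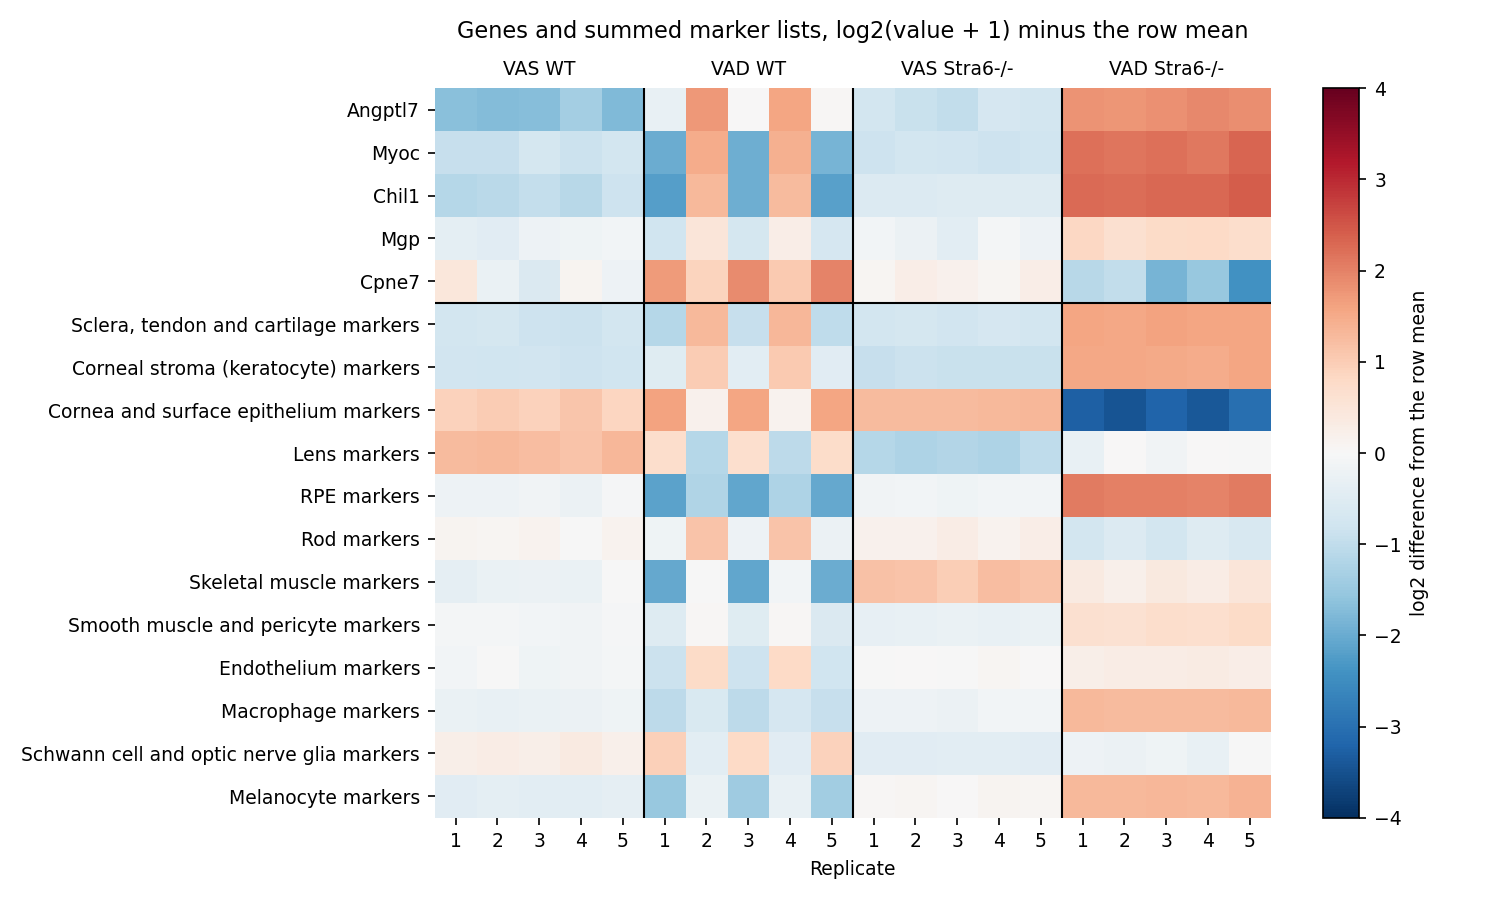
Heat map of log2(value + 1) minus the row mean over 20 libraries (columns, by labelled group and replicate) for the 5 genes and for the sums of 12 marker lists; red is above the mean and blue below. Myoc, Chil1, the sclera sum and the corneal stroma sum are red in VAD WT replicates 2 and 4 and in all 5 libraries with the VAD Stra6-/- label. The corneal epithelium sum is blue in the libraries with the VAD Stra6-/- label alone.

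The likeness of patterns was measured as the root mean square difference of centered log2 values over the 20 libraries, among 15544 genes with a mean of at least 10. Myoc and Chil1 were each other's nearest gene, at 0.205. Next to Myoc came Pdgfrl (0.282) and Nell2 (0.307), and next to Chil1 came Chad (0.322), a cartilage matrix protein, and Pdgfrl (0.325). Nearest to Angptl7 were the collagen chain Col1a2 (0.519), Cilp2 (0.549) and Pcolce2 (0.554), all much farther away. Mgp had close company in Scara3 (0.112), Slc24a1 (0.112) and Sparcl1 (0.118), which is easier for a gene that varies little. Cpne7 was nearest to Emx2os (0.459), BC027072 (0.467) and Mast1 (0.469) and stood 1.60 to 2.57 from the other 4. The libraries share groups and the VAD WT split, so these distances are descriptions.

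Setting each gene against the summed sclera, tendon and cartilage markers of its own library asked whether the genes moved by more or less than that sum. Of the 5, Angptl7 kept the plainest order on this scale, with a mean log2 ratio (SD, n = 5) of -4.39 ± 0.22 for VAS WT, -3.59 ± 0.10 for VAS Stra6-/-, -3.25 ± 0.06 for the libraries with the VAD Stra6-/- label and -2.80 ± 0.34 for VAD WT. The difference between VAS Stra6-/- and VAS WT was 0.80 and that between the groups labelled Stra6-/- 0.34. Each had p = 0.00794 in a two-sided exact permutation test, the smallest p that 5 against 5 allow. In all, 30 such ratios were compared and the p-values are unadjusted. The choice of Angptl7 by a difference from VAS WT favored the direction of the first. Angptl7 was 6.18-fold higher between the groups labelled Stra6-/-, and the mean marker sum rose too, from 10879 to 53211. Mean sums of corneal stroma markers (36722 to 196086) and RPE markers (111586 to 497869) also rose. The ratio therefore cannot assign the difference to a tissue. VAD WT replicates 1, 3 and 5 had the highest ratios, -2.67, -2.57 and -2.44, while replicates 2 and 4 were at -3.08 and -3.24, in the range of the libraries with the VAD Stra6-/- label (-3.31 to -3.14) or just above it.

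Myoc and Chil1 also exceeded the marker sum between the groups labelled Stra6-/-, by 0.69 and 0.54 on the log2 scale (exact permutation p = 0.00794 each). The log2 ratio changed by -1.34 for Mgp and -4.05 for Cpne7 (exact permutation p = 0.00794 each). The marker sum rose by more than Mgp, and Cpne7 fell, all without overlap. These p-values were thus fixed by values already given and add nothing to them. Between VAS Stra6-/- and VAS WT the ratio of Chil1 was higher by 0.44 (exact permutation p = 0.00794), while differences of -0.02 for Myoc, 0.01 for Mgp and 0.21 for Cpne7 had exact permutation p-values of 0.746, 0.944 and 0.270. In VAD Stra6-/- against VAD WT the ratio of Angptl7 differed by -0.45 (exact permutation p = 0.0238). That of Mgp differed by -0.64 (exact permutation p = 0.143), while the unscaled values of both genes were higher. Differences were 1.11 for Myoc, 1.39 for Chil1 and -4.76 for Cpne7 (exact permutation p = 0.00794 each). The choice of Angptl7 and Cpne7 for high VAD WT values favored their lower ratios here. For Cpne7 the p-value was also fixed in advance, since its values were lower and the marker sums higher without overlap. With corneal stroma markers in place of sclera markers, Angptl7 differed by 0.94 between the VAS groups and by 0.21 between the groups labelled Stra6-/- (exact permutation p = 0.00794 each). Between the VAS groups that p-value was fixed in advance, since Angptl7 was higher and the stroma sum lower without overlap. In VAD Stra6-/- against VAD WT it differed by -0.17 on that scale (exact permutation p = 0.127).

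**Figure D4:**
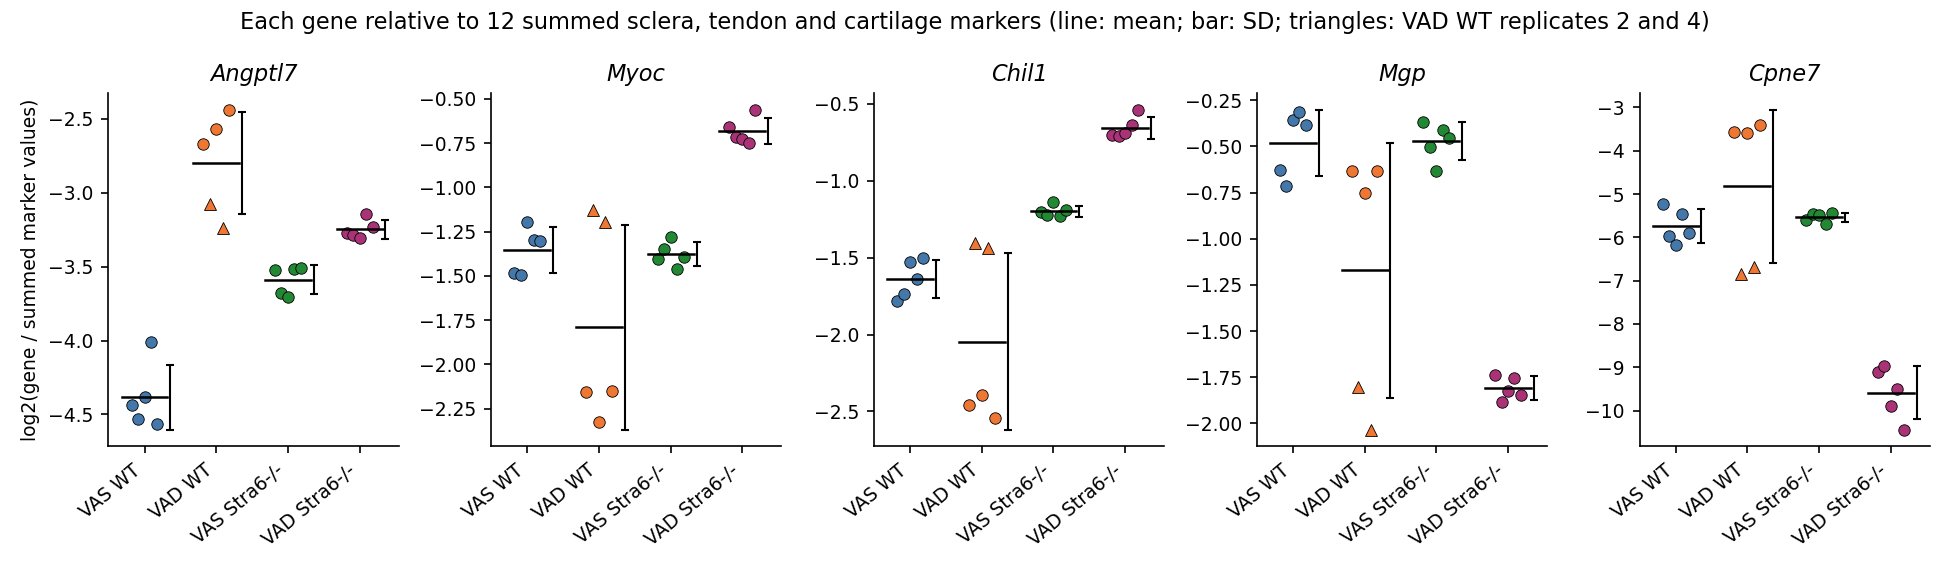
Log2 of each gene's value over the sum of 12 sclera, tendon and cartilage markers in the same library; points are the 20 libraries, lines group means and bars 1 SD, and triangles mark VAD WT replicates 2 and 4. For Angptl7 every VAS WT library lies below every other library, and for Mgp the 5 libraries with the VAD Stra6-/- label lie near VAD WT replicates 2 and 4.

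Other genes of the outflow pathway were taken from lists chosen from general knowledge, but with earlier results of these data known. Whether any listed gene was selected on a measured value is not given. The counts for these lists are therefore not shown to be independent of the data. Of 22 genes of the trabecular meshwork and Schlemm canal, 11 were higher and 4 lower in the libraries with the VAD Stra6-/- label than in VAS Stra6-/-, and 7 did not pass (median log2 change 0.81, against -0.07 over all genes, of which 24.4% were higher and 28.8% lower). Angpt1, a ligand of the Tek receptor of vessel and canal endothelium, rose from 134 ± 28.3 to 1279 ± 73.6 (SD, n = 5, log2 change 3.27). Nell2, a secreted glycoprotein, rose by 2.64 and Pcolce2, an enhancer of procollagen processing, by 2.12. Ccl21a, a chemokine of lymphatic endothelium, fell by 2.93 on the log2 scale.

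Of 22 outflow matrix genes and their regulators, 11 were higher and 3 lower in that comparison (median 0.80). Of all genes 24.4% were higher there and 28.8% lower. Mmp3, stromelysin-1, had the largest change, from 1174 ± 86.4 to 21204 ± 1789 (log2 change 4.17). The metalloproteinase inhibitor Timp3 rose by 2.16 on the log2 scale. Its relative Timp1 rose from 127 ± 22.7 to 508 ± 72.8, and the matricellular protein Sparc from 12891 ± 573 to 51395 ± 2042. In VAS Stra6-/- against VAS WT the first list had 1 higher and 6 lower and the second 6 higher and 1 lower. There 26.6% of all genes passed (15.9% higher and 10.8% lower). Angpt1 fell in that comparison by 1.08, Bmp4 by 0.83 and Ltbp2 by 0.65, and Pcolce2 rose by 0.89. In VAD Stra6-/- against VAD WT 11 were higher and 3 lower in the first list. The second had 17 higher and 3 lower, where 26.2% of all genes were higher and 29.6% lower.

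**Figure D5:**
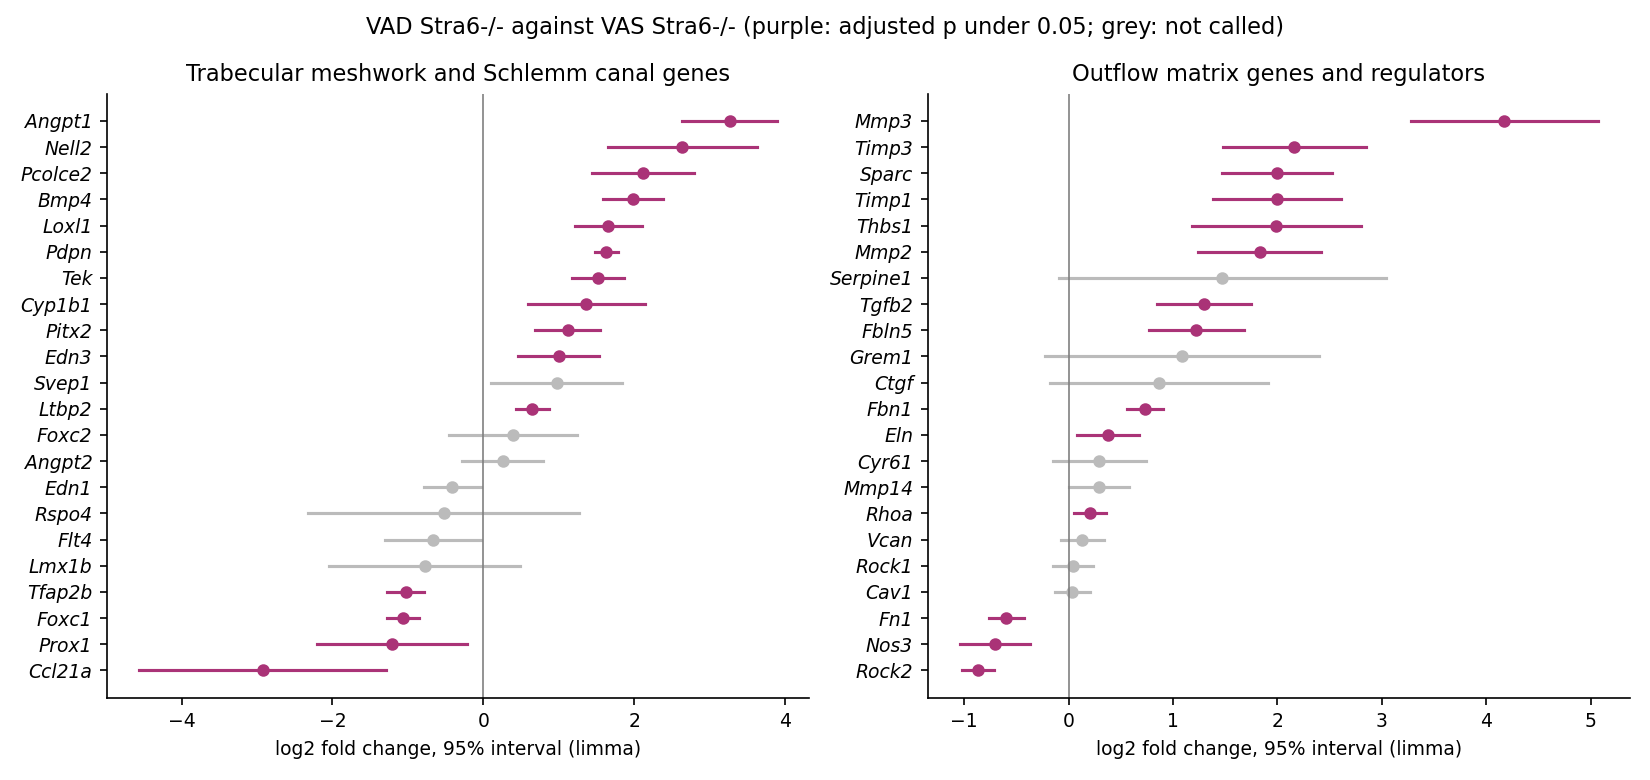
Log2 fold change with 95% interval (limma) between the libraries with the VAD Stra6-/- label and VAS Stra6-/- for 22 trabecular meshwork and Schlemm canal genes (left) and 22 outflow matrix genes and regulators (right); purple passed at an adjusted p under 0.05 and grey did not. Angpt1 at 3.27 and Mmp3 at 4.17 lie farthest to the right, and Ccl21a at -2.93 farthest to the left.

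Myoc is known as a gene that glucocorticoids induce in meshwork cells, and 15 glucocorticoid-induced genes were listed for that reason. Of these, 12 were higher and 0 lower in VAS Stra6-/- than in VAS WT (median log2 change 1.26, against 0.02 over all genes, of which 15.9% were higher and 10.8% lower), while Myoc was at 4194 ± 113 and 4115 ± 280. Fkbp5, a co-chaperone of the glucocorticoid receptor, rose from 347 ± 55.2 to 3481 ± 266 (SD, n = 5, log2 change 3.33), Zbtb16 by 3.91, Pdk4 by 2.39 and Dusp1 by 1.75. In this comparison skeletal muscle markers were higher (7 of 8) and lens markers lower (6 of 8), and their part in the rise of the list was not tested. Between the groups labelled Stra6-/-, where Myoc was 7.92-fold higher, 5 of the 15 were higher and 3 lower in the libraries with the VAD Stra6-/- label (median 0.12). Of all genes 24.4% were higher there and 28.8% lower, so the share of the list that passed was close to the 53.2% of all genes. Mt1 rose by 1.61 and Sgk1 by 1.45, and Cdkn1a and Dusp1 fell by 1.51 and 1.46. In VAD Stra6-/- against VAD WT 12 were higher and 1 lower (median 1.23), where 26.2% of all genes were higher and 29.6% lower. Myoc was 3.66-fold higher there. In VAD WT against VAS WT 4 were higher and 1 lower (median 0.31), where 3.29% of all genes were higher and 5.5% lower. A link between the list and Myoc was not tested.

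Relatives of the 5 genes took mixed courses between the groups labelled Stra6-/-. Of 6 listed angiopoietin-like genes 2 were higher and 1 lower, a share close to the 53.2% of all genes that passed, in the libraries with the VAD Stra6-/- label: Angptl1 rose from 45.5 ± 11.3 to 287 ± 14.0 and Angptl2 from 1150 ± 77.9 to 2712 ± 169 (SD, n = 5). Angptl4, an inhibitor of lipoprotein lipase, rose in VAS Stra6-/- against VAS WT instead, by 2.06 on the log2 scale, where Angptl1 fell by 0.65 and Angptl6 by 0.96. Of 8 copines other than Cpne7, 0 were higher and 7 lower in the libraries with the VAD Stra6-/- label than in VAS Stra6-/- (median -0.89), where 24.4% of all genes were higher and 28.8% lower, with Cpne3 falling by 1.48 and Cpne5 by 1.30. In VAS Stra6-/- against VAS WT 3 copines were higher and 1 lower, where 15.9% of all genes were higher and 10.8% lower. In VAD WT against VAS WT Cpne6 alone passed, with a rise of 0.93, where 3.29% of all genes were higher and 5.5% lower.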

How the data were processed

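RNA of 20 RPE-choroid samples, 5 per group, was sequenced. Per the labels, the authors aligned reads with STAR 2.5.3a, quantified genes with RSEM 1.2.30 and used DESeq2 1.32.0, on GRCm38. The deposited signal is the gene count divided by a DESeq2 size factor per library, without length or log scaling; the steps between values gave whole reads in 19 libraries, but not safely in replicate 1 of the group labelled VAD Stra6-/-, which tests on reads left out (4 in that group). Values + 1 were taken to log2 and tested with limma 3.58.1 in R 4.3.3, with a mean per group, all 20 libraries, an intensity trend and Benjamini-Hochberg adjustment over 18807 genes with at least 5 reads in total. The added 1 shrinks changes of low genes. No column of another series was present. Members and gene lists were chosen with earlier results of these data known. Named were the 5 genes, Stra6 and, per list and comparison, at most 4 genes with the largest change among those called. Alternatives covered pseudocounts (0.5, 4), filters, TMM rescaling, edgeR 4.0.16 and DESeq2 1.42.0 on reads, the groups fitted, a replicate block, and leaving out libraries; setting aside VAD WT replicates 1, 3 and 5 and ratios to marker sums were added after seeing the data. Replicates differed by more than counting noise in every group. The methods count each sample as a separate mouse; p-values measure the spread between libraries.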

Additional observations from a re-analysis of the deposited data

Results flagged for a closer look

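Angptl7 in VAS WT had a library far from the rest of its group: replicate 4, at 616.6 normalized counts, was separated from the nearest of the other 4 by 0.761 of the group's whole range. Chance alone takes a group past the threshold used in about 1 in 20 groups. Without this library the log2 change of Angptl7 in VAS Stra6-/- against VAS WT was 0.92. Cpne7 was higher on the VAD diet in WT, by 1.59 on the log2 scale, and lower between the groups labelled Stra6-/-, by -1.75, without overlap in either case, so that the differences lie -3.33 apart. By arithmetic this is also the gap between its genotype differences, 0.26 on the VAS diet, where the groups overlapped, and -3.07 on the VAD diet. The gap was not tested, because the WT diet contrast was part of how the gene was chosen, and it rests on the libraries with the VAD Stra6-/- label.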

How the results depend on the processing

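Of 560 alternative values, 534 counted as unchanged. A tested change had to stay on its side of the threshold, and an untested one to move by less than the spread between replicates. A count of called genes had only to stay within a set factor of the main count. No tested change turned its direction. The untested WT diet differences of Myoc and Chil1 did turn, to -0.28 and -0.25 without VAD WT replicate 2 and to -0.26 and -0.24 without replicate 4, and that of Mgp ran from -0.21 to 0.11 without 1 library. In VAS Stra6-/- against VAS WT, the change of Angptl7 without 1 library ran from 0.81 to 0.92, and 7 of 10 such values no longer passed. With the VAS groups alone, the change of Chil1 (0.49) passed, since the spread of VAD WT was then not used; 8208 genes and 66 listed genes were called in place of 5010 and 40. Against VAD WT replicates 2 and 4 only, the Angptl7 change in the libraries with the VAD Stra6-/- label was 0.17. In VAD WT against VAS WT, without replicates 2 and 4 the differences were 1.56 for Angptl7, -1.12 for Myoc and -1.09 for Chil1; without replicates 1, 3 and 5 they were 3.30, 2.27 and 2.30, with 0.64 for Mgp and 1.05 for Cpne7. Genes called there numbered 1652, but 7124 and 6164 under these settings (57 and 62 listed genes in place of 22), 639 with the WT groups alone (10 listed) and 1260 to 2651 without 1 library, the highest without VAD WT replicate 4. On recovered reads edgeR gave Myoc 1.15 and Chil1 1.17 in that contrast, and 1.84 for Myoc against VAD WT. The ratios of group means were 2.21, 2.24 and 3.66, which in a split group differ from averages of log2 values. Other causes were not tested. Replicate numbers did not pair the samples (correlations -0.07 to 0.07), and the replicate block gave 9937, 4820, 10423 and 1446 calls in place of 10004, 5010, 10504 and 1652 and changed no call of the 5 genes. Depth limits Cpne7 most, which rested on 38 to 105 normalized counts per library labelled VAD Stra6-/-.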

Other observations

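Other relatives of the 5 genes were compared between the groups labelled Stra6-/-, where 53.2% of all genes passed (24.4% higher and 28.8% lower). Of 11 genes of the olfactomedin family to which Myoc belongs, 4 were higher and 3 lower in the libraries with the VAD Stra6-/- label. Olfml3 rose from 640 ± 40.3 to 6688 ± 369 normalized counts (SD, n = 5) and Olfml1 from 329 ± 27.0 to 1398 ± 63.0, while Olfm4, known from epithelial and myeloid cells, fell from 257 ± 18.6 to 6.11 ± 9.14. Of 5 tested chitinase and chitinase-like genes, 3 were higher and 1 lower. Chil3, a chitinase-like protein of activated macrophages, was at 42.6 ± 13.4 against 4.28 ± 2.88, and Chit1, the active chitinase, at 36.1 ± 21.8 against 876 ± 71.7; all 8 macrophage markers were higher in the same libraries, with sums of 26011 to 26760 against 9220 to 10092, and their part in the values was not tested.

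Of 13 vitamin K-dependent and calcification-inhibiting genes, the setting in which Mgp works, 6 were higher and 4 lower in that comparison. Of all genes 24.4% were higher there and 28.8% lower. Bmp2, a bone morphogenetic protein that Mgp binds, rose from 390 ± 26.2 to 1271 ± 73.7, and Vkorc1, the enzyme that recycles vitamin K, from 563 ± 48.7 to 1240 ± 148. In VAS Stra6-/- against VAS WT, where Mgp did not pass, Spp1 (osteopontin) rose by 0.99 and Ank, a pyrophosphate exporter, by 0.64 on the log2 scale.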
